A study of Mus musculus with 4 samples.

Results

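The genes described here are the core circadian clock genes in RNA sequencing of the mouse hypothalamus. They are *Arntl* (named *Bmal1* in newer annotation), *Clock*, *Per1*, *Per2*, *Per3*, *Cry1*, *Cry2*, *Nr1d1*, *Nr1d2* and *Dbp*. They were taken by gene symbol, and all 10 were found among the 16329 genes of the count table. Each had between 123 and 1263 estimated counts in every library, and all 10 passed the filter on low counts.

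The clock of a cell is a loop of transcription in which the protein pair CLOCK and BMAL1 binds E-boxes and switches on the *Per*, *Cry*, *Nr1d1*, *Nr1d2* and *Dbp* genes. PER and CRY proteins then accumulate and hold CLOCK and BMAL1 down, and the nuclear receptors REV-ERBα (*Nr1d1*) and REV-ERBβ (*Nr1d2*) repress *Arntl*, so that *Arntl* RNA peaks at the opposite time of day to *Nr1d1* and *Dbp* RNA. In mouse tissues *Nr1d1* and *Dbp* RNA peak during the day, *Per3*, *Per1* and *Per2* RNA follow, and *Cry1* RNA comes later in the night, while *Clock* RNA varies little. The hypothalamus holds the master clock, the suprachiasmatic nucleus, and other nuclei that run clocks of their own.

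RNA was sequenced on Ion Torrent from the hypothalamus of male C57BL/6 mice given WD, which is 60% fat chow with a 30% sucrose drink, for 12 weeks. Each genotype, WT and *Tas1r3*-/-, had 2 libraries. *Tas1r3*-/- mice lack the taste receptor subunit TAS1R3, and they were conventional knockouts backcrossed to C57BL/6 and bred from heterozygous parents, young adult when the diet began. The labels call the WT mice littermates matched for age and weight, and all mice were killed under urethane. The study's methods describe the sequenced samples as mice and state more of them per group than the 2 libraries present here. The labels number the libraries without naming animals, so p-values measure the spread between these libraries. The time of day at which tissue was taken is not given in the sources used here.

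Library totals ran from 5874782 to 6273772 estimated counts. *Tas1r3* (chr4:155943725-155947819, minus strand, GRCm39), the targeted gene, had 35.3 and 27.0 estimated counts in WT WD and 7.0 in each *Tas1r3*-/- WD library. One library stood apart from its tissue label. Of 20 hypothalamic marker genes, 19 were lowest in WT WD replicate 2, where the list summed to 131 CPM (estimated counts scaled to library size by TMM) against 2234 CPM in WT WD replicate 1 and 1566 to 1608 CPM in *Tas1r3*-/- WD. In WT WD replicate 2 the neuropeptide genes *Pmch*, *Avp* and *Pomc* were at 6.59, 2.31 and 2.47 CPM, and 2 markers, *Nr5a1* and *Nkx2-1*, named here after their values were seen, were at 0. Of 14 thalamic markers, 13 were highest in the same library, with a sum of 4121 CPM against 963 CPM in WT WD replicate 1 and 916 to 1212 CPM in *Tas1r3*-/- WD. Choroid plexus markers summed to 782 CPM there and to between 43.8 and 62.5 CPM in the others, mostly through *Ttr*. Pituitary markers summed to 1464 CPM in *Tas1r3*-/- WD replicate 1, with *Gh*, *Prl* and *Cga* in the lead, and to at most 17.5 CPM elsewhere. The main results are therefore given with all 4 libraries and without WT WD replicate 2. Regional markers still differed between the groups with that library left out. Of 14 thalamic markers, 12 were then higher in *Tas1r3*-/- WD, with a median log2 fold change of 0.99. Of 19 hypothalamic markers tested, 15 were then lower, with a median of -0.48. In bulk tissue, fewer cells of a type and less RNA per cell cannot be told apart.

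**Figure D1:**
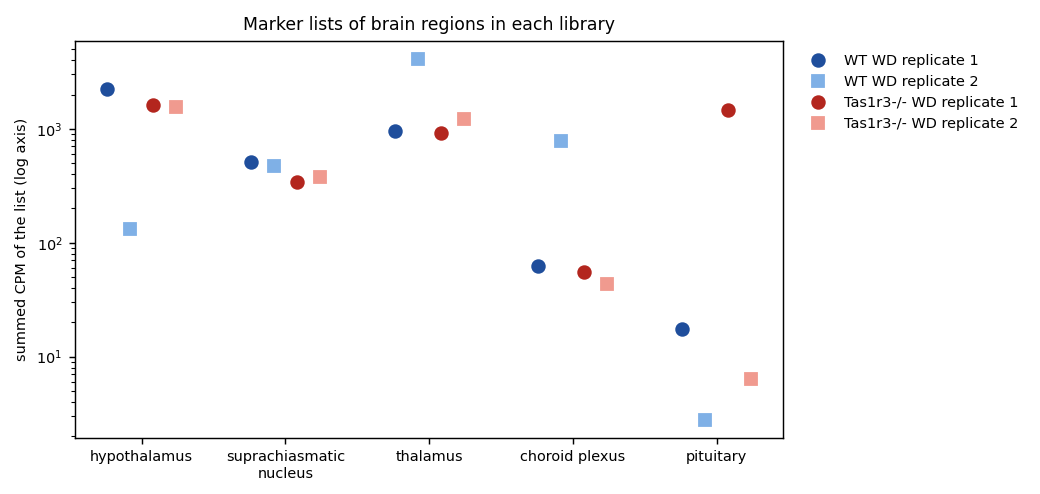
Summed CPM (log axis) of 5 lists of regional marker genes in each of the 4 libraries, 1 point per library. WT WD replicate 2 has the lowest hypothalamic sum, 131 CPM, and the highest thalamic sum, 4121 CPM, and *Tas1r3*-/- WD replicate 1 has the highest pituitary sum, 1464 CPM.

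E-boxes, D-boxes and REV-ERB sites are the motifs through which the loop is wired, so the bases before the transcription start of the clock genes were searched for them. The RefSeq promoter table of GRCm38.p6 held windows for 9 of the 10 genes, and *Per2* is only named here. Windows of 300 bases, from 250 before to 50 after the start, were searched on both strands. The E-box CACGTG was in windows of *Per1* and *Cry1*, and in 7.15% of all 32851 windows in the table. Its variant CACGTT was in those of *Cry1*, *Cry2* and *Nr1d1*, and in 4.68% of all windows. The D-box TTATGTAA, the motif that DBP and its relatives bind, was in that of *Per3* and in 0.938% of all windows. The element TGACGTCA of the factor CREB was in none of the 9 genes' windows and in 1.79% of all windows, and AGGTCA, the core of the site read by REV-ERB and ROR receptors, was in windows of *Arntl*, *Clock*, *Per1* and *Nr1d2* and in 16.3% of all windows. No pair of these matches overlapped in the sequences printed below. They are the 250 bases before the start, 5′ to 3′ on the gene's strand, for the 3 genes that were lower in both *Tas1r3*-/- WD libraries and for 2 with an E-box that were not, and each matched GRCm39 at 1 place. Capitals mark the E-box, its variant on either strand, and the D-box.
Dbp, chr7:45354421-45354670, plus strand: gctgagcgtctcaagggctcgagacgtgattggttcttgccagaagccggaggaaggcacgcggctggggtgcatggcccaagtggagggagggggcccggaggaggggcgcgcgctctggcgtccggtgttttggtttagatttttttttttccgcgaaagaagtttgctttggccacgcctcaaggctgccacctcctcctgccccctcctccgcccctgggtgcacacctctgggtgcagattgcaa
Nr1d1, chr11:98666204-98666453, minus strand: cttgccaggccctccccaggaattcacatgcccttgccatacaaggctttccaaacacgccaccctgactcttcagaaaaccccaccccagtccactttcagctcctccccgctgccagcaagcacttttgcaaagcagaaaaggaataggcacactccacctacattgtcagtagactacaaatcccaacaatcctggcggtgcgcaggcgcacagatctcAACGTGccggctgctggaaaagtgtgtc
Per3, chr4:151129123-151129372, minus strand: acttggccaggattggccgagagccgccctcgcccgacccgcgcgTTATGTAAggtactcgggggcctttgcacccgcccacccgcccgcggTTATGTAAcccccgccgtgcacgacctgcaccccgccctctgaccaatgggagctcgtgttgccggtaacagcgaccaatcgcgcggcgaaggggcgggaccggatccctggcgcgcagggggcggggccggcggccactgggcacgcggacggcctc
Per1, chr11:68989525-68989774, plus strand: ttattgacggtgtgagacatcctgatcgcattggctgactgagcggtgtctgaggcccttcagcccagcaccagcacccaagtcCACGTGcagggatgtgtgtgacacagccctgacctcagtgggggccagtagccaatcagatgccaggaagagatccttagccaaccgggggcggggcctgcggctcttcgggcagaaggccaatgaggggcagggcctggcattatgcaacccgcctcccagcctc
Cry1, chr10:85020919-85021168, minus strand: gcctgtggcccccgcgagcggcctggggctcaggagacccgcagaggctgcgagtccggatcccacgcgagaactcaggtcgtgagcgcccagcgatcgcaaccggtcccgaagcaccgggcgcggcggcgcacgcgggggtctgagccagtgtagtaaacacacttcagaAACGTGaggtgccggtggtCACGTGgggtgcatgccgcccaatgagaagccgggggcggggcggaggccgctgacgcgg
The *Per3* window has its pair of D-boxes 205 and 158 bases before the start, counted to the first base of each. The *Nr1d1* window has CACGTT, read on the other strand, 28 bases before the start. In *Cry1* the E-box and the variant lie 60 and 79 bases before the start, and in *Per1* the E-box lies 166 bases before it. None of these motifs was matched in the *Dbp* window. A match describes the letters only, and binding was not measured.

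Levels of different genes were compared as CPM per kb of the canonical GENCODE transcript. *Nr1d1* was the most abundant of the 10, with a mean of 56.0 CPM per kb over the 4 libraries and a range of 45.9 to 72.8. *Dbp* followed at 50.0 and had the widest range, 26.3 to 93.5, a 3.55-fold span. The other 9 genes spanned between 1.31-fold and 1.62-fold. *Cry2*, *Per1* and *Nr1d2* came next, at means of 33.8, 25.5 and 21.5 CPM per kb. The remaining 5, *Per3*, *Cry1*, *Per2*, *Clock* and *Arntl*, lay between 11.3 and 6.41 CPM per kb. Some neighbours in this order did not differ beyond their spread. *Dbp* was above *Cry2* in 2 of the 4 libraries, the WT ones, and *Per2* was above *Clock* in 2, replicate 1 of each group. *Nr1d1* was above *Dbp*, *Per3* above *Cry1* and *Cry1* above *Per2* in 3 of the 4.

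Genes were compared between groups with edgeR's quasi-likelihood test on all 14325 genes with enough counts, and called differentially expressed (DEGs) where the Benjamini-Hochberg adjusted p was under 0.05 and the fold change 1.5 or more. With all 4 libraries 0 of the 10 clock genes were DEGs, as were 0 of all genes tested (0%), and DESeq2 and limma called 0 of the 10 as well. At an unadjusted p under 0.05 there were 3 of the 10, namely *Dbp*, *Nr1d1* and *Per2*, against 5.51% of all genes. The smallest edgeR adjusted p among them was 0.746. DESeq2 called 8 genes in the whole table (0.0558%). The median log2 fold change of the 10 was -0.06, beside -0.01 for all genes.

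Both *Tas1r3*-/- WD libraries were above both WT WD libraries for *Arntl*, *Clock* and *Per2*, where 20.6% of all genes were. Both were below for *Dbp*, *Nr1d1* and *Per3*, where 19.0% of all genes were. The groups of the other 4, *Per1*, *Cry1*, *Cry2* and *Nr1d2*, overlapped. The 2 WT libraries were farther apart on the log2 scale than the 2 *Tas1r3*-/- libraries for 9 of the 10 genes, *Clock* being the exception. WT WD replicate 2 had the highest level of 6 of the 10 and WT WD replicate 1 the lowest level of 5.

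**Figure D2:**
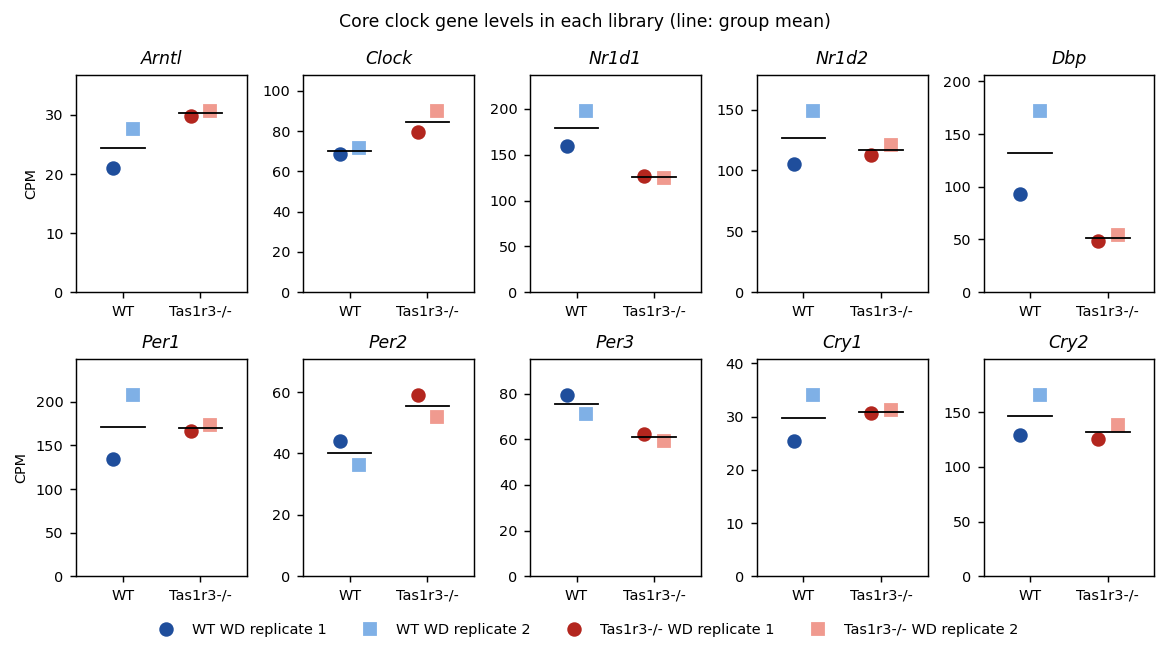
CPM of the 10 clock genes in each library (1 panel per gene, vertical axes from 0, 1 point per library, black lines at the means of 2 libraries). *Dbp*, *Nr1d1* and *Per3* are lower and *Arntl*, *Clock* and *Per2* higher in both *Tas1r3*-/- WD libraries, and WT WD replicate 2 lies above WT WD replicate 1 by 1.85-fold for *Dbp*, 1.56-fold for *Per1* and 1.42-fold for *Nr1d2*.

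The output factor *Dbp* (chr7:45354512-45359627, plus strand, GRCm39), a direct target of CLOCK and BMAL1 that drives D-box genes, had the largest difference. It was at 92.8 and 172 CPM in WT WD replicates 1 and 2, and at 48.4 and 54.5 CPM in *Tas1r3*-/- WD. Both WT libraries were above both *Tas1r3*-/- libraries, but WT WD replicate 2 was itself 1.85-fold above WT WD replicate 1. The means were 132 ± 55.9 CPM in WT WD and 51.4 ± 4.37 CPM in *Tas1r3*-/- WD (SD, n = 2 each). The log2 fold change was -1.36 (SE 0.32), with an edgeR unadjusted p of 0.00797, an edgeR adjusted p of 0.746 and a DESeq2 adjusted p of 0.139. Without WT WD replicate 2 it was -0.85 (SE 0.12) and *Dbp* was a DEG at an edgeR adjusted p of 0.0313, in a fit where the lone WT library is assumed to vary like the other group. In that fit *Dbp* was the only one of the 10 called, and 25 of 14694 genes were called in all (0.170%). Without WT WD replicate 1 the log2 fold change was -1.73. Exons of *Dbp* share 539 bases (29.3% of its transcript) with exons of *Sphk2* on the other strand. Whether the counting used strand is not given in the sources used here. *Sphk2* itself had 279 to 321 estimated counts in the 4 libraries.

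*Nr1d1* (chr11:98658752-98666188, minus strand, GRCm39), the gene of REV-ERBα, was at 160 and 198 CPM in WT WD and at 127 and 125 CPM in *Tas1r3*-/- WD. The groups did not overlap, and the *Tas1r3*-/- libraries were nearly equal. The log2 fold change was -0.51 (SE 0.15) at an edgeR unadjusted p of 0.0200 and adjusted p of 0.746. It stood at -0.35 (SE 0.10) without WT WD replicate 2, at an adjusted p of 0.199. *Nr1d1* shares 1338 exonic bases, 49.2% of its transcript, with *Thra* on the opposite strand, a gene with 4279 to 5535 estimated counts per library, so their reads cannot be told apart if strand was not used. *Thra* was highest in WT WD replicate 1 and lowest in WT WD replicate 2. The part of *Thra* reads in the *Nr1d1* counts was not tested.

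*Nr1d2* (chr14:4230545-4266624, plus strand, GRCm39), the gene of REV-ERBβ, was at 105 and 149 CPM in WT WD and at 113 and 121 CPM in *Tas1r3*-/- WD. The *Tas1r3*-/- libraries lay between the WT ones, so the 2 receptor genes did not show the same pattern over the libraries. The log2 fold change of *Nr1d2* was -0.11 (SE 0.20, edgeR adjusted p = 0.886) and turned to 0.16 (SE 0.11) without WT WD replicate 2.

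Of the activators, *Arntl* (chr7:112806152-112914735, plus strand, GRCm39), which encodes BMAL1, was at 21.1 and 27.7 CPM in WT WD and at 29.9 and 30.7 CPM in *Tas1r3*-/- WD. The *Tas1r3*-/- libraries were the higher ones, and WT WD replicate 2 came close to them. The log2 fold change was 0.31 (SE 0.19, edgeR adjusted p = 0.749) with all libraries and 0.52 (SE 0.18, adjusted p = 0.254) without WT WD replicate 2. Its partner *Clock* (chr5:76342860-76452846, minus strand, GRCm39) was at 68.5 and 71.8 CPM in WT WD and at 79.4 and 90.1 CPM in *Tas1r3*-/- WD. That is a log2 fold change of 0.27 (SE 0.13, edgeR adjusted p = 0.746), or 0.31 without WT WD replicate 2. The direction of *Clock* depended on how transcripts were treated. Of its 3 RefSeq transcripts the one with the most counts had 181 and 238 estimated counts in the WT libraries and 181 and 127 in those of *Tas1r3*-/- mice, and by that transcript alone the log2 fold change was -0.46. By its most abundant transcript *Arntl* was at 0.79 in place of 0.31. The share of reads the authors' method gave to each transcript was estimated, so the sum over transcripts was kept.

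Among the repressors, the 3 *Period* genes showed 3 patterns. *Per1* (chr11:68986035-69002300, plus strand, GRCm39), which light and hormones can switch on within minutes in addition to the clock, was at 134 and 208 CPM in WT WD and at 166 and 174 CPM in *Tas1r3*-/- WD. Its *Tas1r3*-/- values lay between the WT values, with a log2 fold change of -0.01 (SE 0.23, edgeR adjusted p = 0.997). Without WT WD replicate 2 it was 0.35 (SE 0.10, adjusted p = 0.202).

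*Per2* (chr1:91343700-91387069, minus strand, GRCm39), whose protein joins CRY in repressing CLOCK and BMAL1, was at 44.1 and 36.4 CPM in WT WD and at 59.1 and 51.9 CPM in *Tas1r3*-/- WD. It was the only one of the 10 genes with its lowest level in WT WD replicate 2. The log2 fold change was 0.46 (SE 0.17) at an edgeR unadjusted p of 0.0391 and adjusted p of 0.746. It stood at 0.33 (SE 0.14, adjusted p = 0.343) without WT WD replicate 2.

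*Per3* (chr4:151081373-151129140, minus strand, GRCm39), the *Period* gene with the pair of D-boxes printed above, was at 79.5 and 71.3 CPM in WT WD and at 62.5 and 59.3 CPM in *Tas1r3*-/- WD. Here the WT libraries were both higher and close to each other. The log2 fold change was -0.31 (SE 0.13, edgeR adjusted p = 0.746) with all libraries and -0.39 (SE 0.12, adjusted p = 0.217) without WT WD replicate 2, so its difference was no smaller without that library. *Per3* lies 4.81 Mb from *Tas1r3* on chromosome 4. Of the 134 genes tested within 10 Mb of *Tas1r3*, 31 were higher and 36 lower in both *Tas1r3*-/- libraries, beside 20.6% and 19.0% of all genes. Their median log2 fold change was -0.03.

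The *Cryptochrome* genes, whose proteins are the main repressors of the loop, overlapped between groups. *Cry1* (chr10:84967560-85021252, minus strand, GRCm39) was at 25.4 and 34.1 CPM in WT WD and at 30.7 and 31.2 CPM in *Tas1r3*-/- WD. *Cry2* (chr2:92233894-92264474, minus strand, GRCm39) was at 129 and 166 CPM in WT WD and at 126 and 138 CPM in *Tas1r3*-/- WD. Both *Tas1r3*-/- values of *Cry1* lay between those of WT, and for *Cry2* they were near the lower WT library. Their log2 fold changes were 0.06 (SE 0.20) and -0.16 (SE 0.17), with edgeR adjusted p of 0.948 and 0.806, and without WT WD replicate 2 they were 0.28 (SE 0.17) and 0.03 (SE 0.11).

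**Figure D3:**
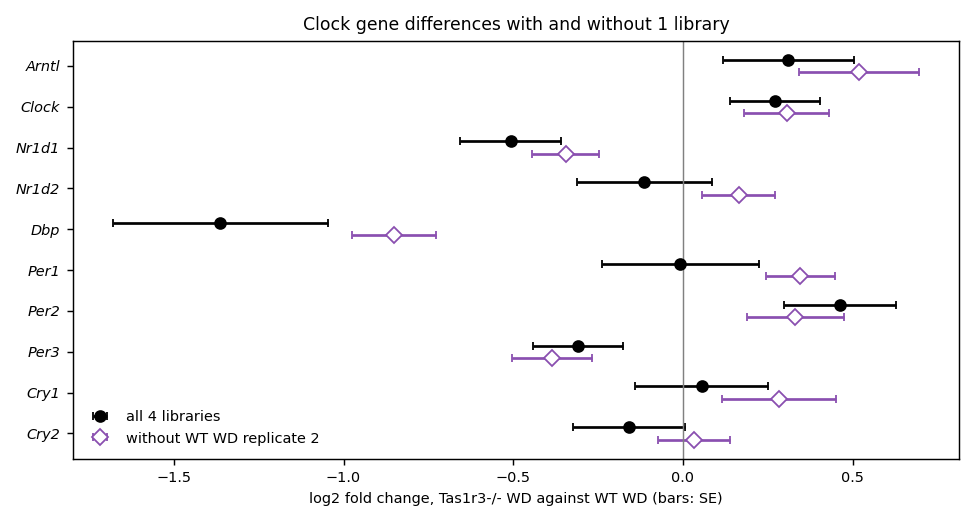
Log2 fold change of each clock gene, *Tas1r3*-/- WD against WT WD, with its SE, for all 4 libraries (black circles) and without WT WD replicate 2 (open diamonds). *Dbp*, *Nr1d1* and *Per3* stay below 0 and *Arntl*, *Clock* and *Per2* above 0 in both, while *Nr1d2*, *Per1* and *Cry2* cross 0.

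Leaving out WT WD replicate 2 kept the sign of 7 of the 10 log2 fold changes, and 7 of the 10 were then above 0, with a median of 0.22 against 0.00 for all genes. Without WT WD replicate 1, which leaves the library with thalamic markers as the only WT, 2149 of 14820 genes were DEGs (14.5%), among them *Dbp*, *Nr1d1* and *Per2*. With either *Tas1r3*-/- library left out, 0 of the 10 were DEGs. The part of the regional make-up of WT WD replicate 2 in the clock gene levels was not tested.

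A ratio between 2 genes of the same library does not depend on scaling, and ratios of genes that peak at opposite times change most with time of day. They are given as log2 of CPM with 0.5 added. *Arntl* to *Dbp* was -2.11 and -2.61 in the WT libraries and -0.69 and -0.82 in those of *Tas1r3*-/- mice. *Arntl* to *Nr1d1* was -2.89 and -2.82 in the WT libraries and -2.07 and -2.01 in those of *Tas1r3*-/- mice. In these 2 ratios the gap between groups, 1.61 and 0.82 on the log2 scale, was wider than the gap within either group, and against WT WD replicate 1 alone it was 1.36 and 0.85. *Arntl* to *Per3* was -1.89 and -1.35 in the WT libraries and -1.05 and -0.94 in those of *Tas1r3*-/- mice. *Arntl* was higher and *Dbp*, *Nr1d1* and *Per3* were lower in both *Tas1r3*-/- libraries, so their ratios had to be higher there. The ratios of *Arntl* to *Nr1d2*, *Per1*, *Cry1* and *Cry2* were also higher in both *Tas1r3*-/- libraries, by 0.41, 0.29, 0.25 and 0.47, and by 0.35, 0.16, 0.23 and 0.48 against WT WD replicate 1 alone. The gap between groups was also wider than that within either group for *Per3*, *Nr1d2*, *Per1*, *Cry1* and *Cry2*. A wider gap was therefore not particular to *Dbp* and *Nr1d1*. The ratios of *Arntl* to *Per2* and to *Clock* overlapped.

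*Per2* was set in the same way against *Dbp*, *Nr1d1* and *Per3*, which peak before it. Its ratios to *Per1* and *Nr1d2* were not taken. *Per2* to *Dbp* was -1.06 and -2.22 in the WT libraries and 0.29 and -0.07 in those of *Tas1r3*-/- mice. *Per2* to *Nr1d1* was -1.85 and -2.43 in the WT libraries and -1.09 and -1.26 in those of *Tas1r3*-/- mice. *Per2* to *Per3* was -0.84 and -0.96 in the WT libraries and -0.08 and -0.19 in those of *Tas1r3*-/- mice. All 3 were higher in both *Tas1r3*-/- libraries, by 1.75, 0.96 and 0.77, and by 1.17, 0.67 and 0.71 against WT WD replicate 1 alone. *Per2* was higher and *Dbp*, *Nr1d1* and *Per3* were lower in both *Tas1r3*-/- libraries, so these ratios had to be higher there. They share genes with each other and with the values above and are given as a description, with no test.

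**Figure D4:**
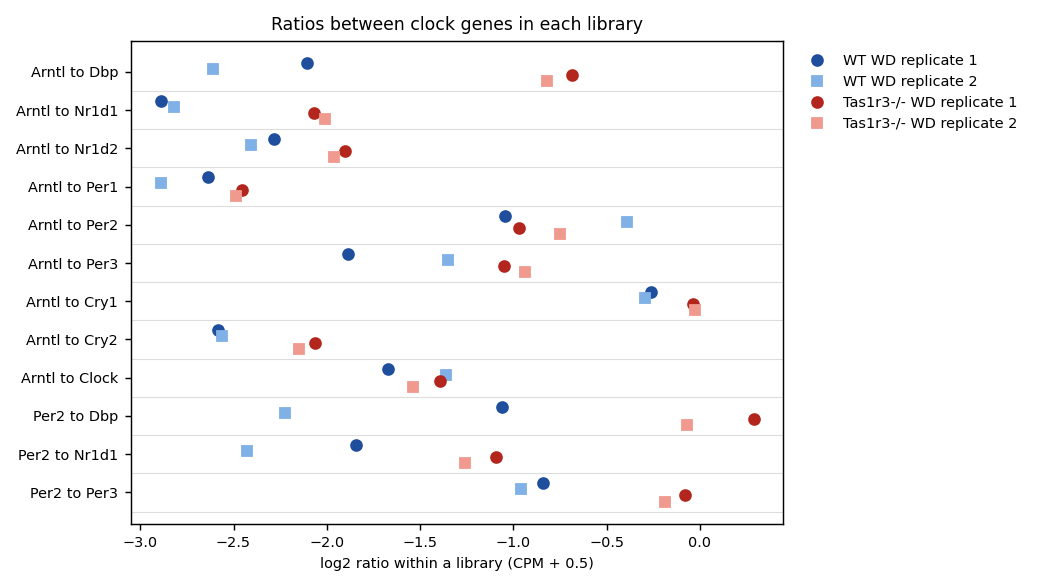
Log2 ratios (CPM with 0.5 added) between pairs of clock genes within each library, 1 point per library. For *Arntl* to *Dbp* the WT WD libraries lie at -2.11 and -2.61 and the *Tas1r3*-/- WD libraries at -0.69 and -0.82, and the ratios of *Arntl* to *Per2* and to *Clock* overlap between the groups.

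A wider view took the mean log2 level of an activator arm (*Arntl*, *Clock*, *Npas2*, *Nfil3*) minus that of a repressor and output arm (*Per1*, *Per2*, *Per3*, *Nr1d1*, *Nr1d2*, *Dbp*, *Tef*, *Hlf*, *Bhlhe41*, *Ciart*). It was -1.66 and -2.01 in the WT libraries and -1.43 and -1.37 in those of *Tas1r3*-/- mice. The groups did not overlap and differed by 0.44, or by 0.26 without WT WD replicate 2. Most of the spread came from the repressor and output arm of WT WD replicate 2, which was at 6.91 where the other 3 libraries were between 6.37 and 6.46. The activator arm was between 4.80 and 5.00 in the 4 libraries. Against WT WD replicate 1 alone, the activator arm of *Tas1r3*-/- WD differed by 0.17 and the repressor and output arm by -0.09. As the labels give no time of collection, a difference in the time at which the groups were killed and an effect of genotype on the clock cannot be told apart, and neither was tested.

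The arms were not uniform. *Npas2*, a substitute partner for BMAL1 in the forebrain and like *Arntl* a target of REV-ERB, was at 18.9 and 28.0 CPM in WT WD and at 16.4 and 15.8 CPM in *Tas1r3*-/- WD, the reverse of *Arntl*. Its log2 fold change was -0.54, and -0.23 without WT WD replicate 2. *Nfil3*, a D-box repressor that REV-ERB also represses, was at 20.1 and 13.2 CPM in WT WD and at 21.0 and 22.4 CPM in *Tas1r3*-/- WD. The PAR bZIP relatives of *Dbp* did not share its pattern. *Tef* was at 353 and 340 CPM in WT WD and at 366 and 333 CPM in *Tas1r3*-/- WD, a log2 fold change of 0.01. *Hlf* was at 88.6 and 271 CPM in WT WD and at 103 and 106 CPM in *Tas1r3*-/- WD, so its log2 fold change of -0.78 became 0.24 without WT WD replicate 2. *Ciart*, a repressor of CLOCK and BMAL1 that follows *Dbp* in phase, was at 14.3 and 28.5 CPM in WT WD and at 10.9 and 13.0 CPM in *Tas1r3*-/- WD.

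Outside the 10, 44 of 46 listed clock genes were tested, and edgeR called 0 of them. At an unadjusted edgeR p under 0.05 there were 5, where 5.51% of all genes were. DESeq2 and limma called 0 as well. There were 10 of the 44 above and 10 below in both *Tas1r3*-/- libraries, where 20.6% and 19.0% of all genes were. Of the 44, 22 had a log2 fold change above 0 and 22 below, and the median was 0.00. The median was 0.11 without WT WD replicate 2, with 24 of the 44 above 0 and 20 below, and *Tsc22d3* was then at 0.98.

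Of 11 other factors of the loop in the table, 1 was higher and 4 were lower in both *Tas1r3*-/- libraries, beside 20.6% and 19.0% of all genes. The higher one was *Sirt1*, a deacetylase that acts on clock proteins, with a log2 fold change of 0.44. *Ciart* (-0.84), *Npas2* (-0.54), *Bhlhe40* (-0.46) and *Bhlhe41* (-0.14) were the lower ones, the last pair encoding E-box repressors. Leaving out WT WD replicate 2 gave 0.22 for *Sirt1*, -0.26 for *Ciart*, -0.23 for *Npas2*, -0.23 for *Bhlhe40* and -0.09 for *Bhlhe41*. *Rora*, an activator of *Arntl* that competes with REV-ERB, was at 34.9 and 246 CPM in WT WD and at 45.0 and 72.9 CPM in *Tas1r3*-/- WD. It was thus far higher in WT WD replicate 2 than elsewhere. *Rora* is also on the list of thalamic markers, and the part of regional make-up in its level was not tested. *Nono*, a PER partner, ranged from 138 to 166 CPM and overlapped.

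The 16 kinases, phosphatases, ubiquitin ligases and related enzymes that set the stability of PER and CRY had a median log2 fold change of -0.03. In both *Tas1r3*-/- libraries 2 of them were higher and 4 lower, beside 20.6% and 19.0% of all genes. *Gsk3b* (0.18) and *Csnk1a1* (0.11) were higher, and *Csnk2b* (-0.34) and *Fbxl21* (-0.28) were the lowest of the 4. These 4 values, with WT WD replicate 2 left out, were 0.18, 0.18, -0.19 and -0.16. *Gsk3a* and *Ppp1cb*, which with *Gsk3b* had the most CPM (not scaled for length), had log2 fold changes of -0.17 and -0.02 with all libraries. Among 19 output genes of the clock, 7 were higher and 3 lower in both *Tas1r3*-/- libraries, beside 20.6% and 19.0% of all genes. Their median was 0.08. *Lonrf3* was at 21.0 and 16.8 CPM in WT WD and at 37.1 and 39.4 CPM in *Tas1r3*-/- WD, and *Tspan4* at 21.5 and 42.7 CPM in WT WD and at 20.2 and 21.2 CPM in *Tas1r3*-/- WD. For *Lonrf3* the log2 fold change was 1.02, and 0.87 without WT WD replicate 2, while for *Tspan4* it was -0.63, and -0.05 without that library. *Hspa1b*, a heat shock gene that also follows body temperature, had a log2 fold change of 2.30, but it is nearly identical to *Hspa1a* and its counts are uncertain. *Hsp90aa1* and *Por*, which with *Tef* had the most CPM (not scaled for length), had log2 fold changes of 0.01 and -0.16.

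*Per1* also responds to neuronal activity and to glucocorticoids, so it was read beside genes of those responses. Of 11 immediate early and cAMP-induced genes tested, 8 were higher in both *Tas1r3*-/- libraries and 0 lower, where 20.6% and 19.0% of all genes were, with a median log2 fold change of 0.55. Those with the most CPM, not scaled for length, were *Egr1*, at 75.1 and 77.9 CPM in WT WD and at 130 and 143 CPM in *Tas1r3*-/- WD, *Fos*, at 46.5 and 47.3 against 66.0 and 71.0 CPM, and *Sik1*, which overlapped. DESeq2 called *Fosb*, *Fosl2* and *Egr3* in this list, where it called 0.0558% of all genes. The edgeR test called 0, with 5 at an unadjusted p under 0.05, beside 5.51% of all genes. With WT WD replicate 2 left out, edgeR called 4 of the 11, *Fosb*, *Fosl2*, *Egr1* and *Egr3*, where it called 0.170% of all genes. Of 13 glucocorticoid-induced genes, *Per1* among them, 8 were higher in both *Tas1r3*-/- libraries and 0 lower, beside the same 20.6% and 19.0%. Their median was 0.68. At an unadjusted edgeR p under 0.05 there were 7, beside 5.51% of all genes, and edgeR called 0. DESeq2 called *Zbtb16* and *Cdkn1a*, beside 0.0558% of all genes. Without WT WD replicate 2 the log2 fold changes of *Zbtb16*, *Cdkn1a*, *Tsc22d3* and *Sgk1* were 2.48, 1.93, 0.98 and 2.85. In that fit 11 of the 13 were above 0 and 2 below. *Mt1* and *Mt2*, which with *Per1* had the most CPM (not scaled for length), overlapped between the groups, with log2 fold changes of -0.15 and -0.21. *Per1* overlapped between the groups. The medians of the 2 lists without WT WD replicate 2, where the log2 fold change of *Per1* was 0.35, were 0.60 and 0.75.

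**Figure D5:**
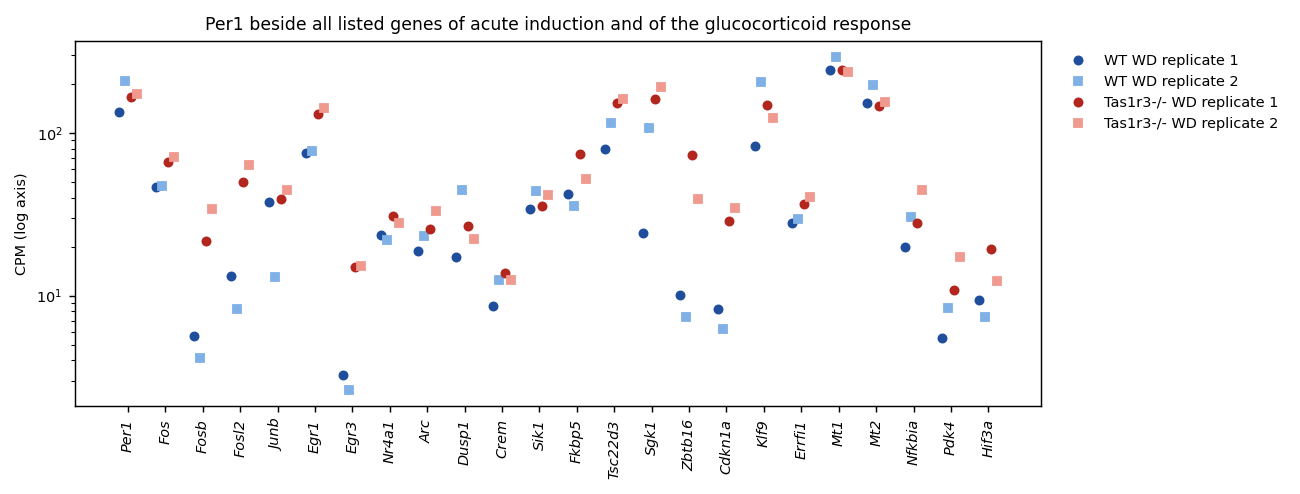
CPM (log axis) of *Per1*, of the 11 other genes of the acute response and of the 12 other glucocorticoid-induced genes in each library, 1 point per library. *Per1* in *Tas1r3*-/- WD lies between its WT WD values of 134 and 208 CPM, whereas *Fosb*, *Fosl2*, *Egr3*, *Zbtb16* and *Cdkn1a* lie well above both WT WD libraries.

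The suprachiasmatic nucleus is a small part of the hypothalamus, and the levels of its marker genes varied widely. Of 15 such genes 12 were tested, and 1 was higher and 2 were lower in both *Tas1r3*-/- libraries, beside 20.6% and 19.0% of all genes. Of the 15, 8 had their lowest and 5 their highest level in WT WD replicate 2. *Vip*, the peptide of its core, was at 18.4 and 1.15 CPM in WT WD and at 10.6 and 11.4 CPM in *Tas1r3*-/- WD. *Avp*, made in its shell but mostly in other nuclei, was at 335 and 2.31 CPM in WT WD and at 197 and 203 CPM in *Tas1r3*-/- WD. Without WT WD replicate 2 their log2 fold changes were -0.74 and -0.75, with edgeR adjusted p of 0.233 and 0.0155. *Rgs16*, *Cck*, *Rorb*, *Prokr2* and *Vipr2* were highest in WT WD replicate 2, at 159, 165, 70.5, 24.7 and 17.8 CPM. All 10 clock genes were detected in this library, at levels between 27.7 and 208 CPM, while *Vip* and *Avp* were nearly absent there.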

How the data were processed

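Hypothalamic RNA of WD-fed WT and *Tas1r3*-/- mice was sequenced in 2 libraries per group. According to the labels, Ion Torrent libraries were made from polyadenylated RNA after removal of rRNA. Per the submitters' processing notes the authors used STAR, Partek and mm39, and they deposited an estimated count (expected count) per RefSeq transcript and library, without normalization. Of these values 13% were whole numbers, every transcript had at least 10 over the 4 libraries, and the 4 tables of single samples were identical to the columns of the joint table. The counting tool's settings are not given in the sources used here. The planned design assumed counts per gene, so transcripts were summed per gene symbol through a RefSeq table (GRCm38.p6) that served for names alone (30783 of 30930 transcripts named). The other 147 held 0.583% to 2.66% of a library and were left out. Sums were rounded for the count models.

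Genes were tested by the quasi-likelihood test of edgeR 4.0.16 (R 4.3.3), after TMM scaling and filterByExpr, with Benjamini-Hochberg adjustment, over 14325 genes and with no covariate. Alternatives were RLE size factors, total counts, other filters, DESeq2 1.42.0, limma-trend (limma 3.58.1), edgeR's earlier quasi-likelihood method, a replicate block, no fold threshold, the most abundant transcript per gene, and each library left out. A count of 0 allows up to 3 counts, between 0.486 and 0.525 CPM, for counting error only. Coordinates are of GENCODE M39 on GRCm39, and promoter windows are RefSeq sequences of GRCm38.p6 found in GRCm39 by exact match. The test was checked on simulated data. The simulated libraries shared the same mean profile, so that check does not cover a library of different regional make-up.

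The 10 genes and all gene lists were chosen with earlier results of these data known. Named beside the 10 were, of each list, the 3 genes with the highest mean CPM (not scaled for length) and any called, and for clock lists the 2 highest and 2 lowest log2 fold changes among genes whose groups did not overlap. *Vip*, *Nr5a1*, *Nkx2-1* and the genes called by DESeq2 or with WT WD replicate 2 left out were chosen after their values were seen. Genes were not ranked by likeness of pattern, since 4 libraries are too few. The ratios of *Per2* to *Dbp*, *Nr1d1* and *Per3*, and those of *Arntl* to *Nr1d2*, *Cry1*, *Cry2* and *Clock*, were not in the plan.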

Additional observations from a re-analysis of the deposited data

How the results depend on the processing

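With all 4 libraries, 0 of the 10 clock genes and 0 of the other listed clock genes were called by any alternative, and the members' edgeR, limma and DESeq2 adjusted p ran from 0.139 (*Dbp* in DESeq2) upwards. Of 140 log2 fold changes recomputed for the 10 genes, 130 kept their direction. Leaving out 1 library gave 0 to 3 called clock genes and 0 to 12 of the others, 3 and 12 without WT WD replicate 1 and 1 and 1 without WT WD replicate 2, and a difference between the arms of 0.26 to 0.61. It turned *Per1* (-0.29 to 0.35), *Cry1* (-0.13 to 0.28), *Cry2* (-0.32 to 0.033) and *Nr1d2* (-0.34 to 0.16). By the most abundant transcript *Clock* was at -0.46, *Per1* at 0.20 and *Arntl* at 0.79, and the arms differed by 0.28 in place of 0.44. *Per1*, near 0, also turned with total counts (0.0042), limma-trend (0.027) and the replicate block (0.0265). The cause was not tested, apart from the fewer libraries in each fit that leaves one out.

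Replicate numbers are shared in the labels, but nothing says that they pair animals, and deviations of same-numbered libraries correlated at r = 0.0821. With the replicate block 0 clock genes and 0 other listed clock genes were called.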

Other observations

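Markers of the other cell types of the brain varied less than those of regions. Oligodendrocyte markers summed to 5170 and 6416 CPM in WT WD and to 6162 and 6234 CPM in *Tas1r3*-/- WD. Astrocyte markers summed to 3183 and 2972 CPM in WT WD and to 3404 and 3351 CPM in *Tas1r3*-/- WD. Of these 10 genes 3 were higher and 1 lower in both *Tas1r3*-/- libraries, beside 20.6% and 19.0% of all genes. Endothelial markers ranged from 297 to 329 CPM over the 4 libraries. Cortical and hippocampal markers summed to 1290 CPM in WT WD replicate 2 and to between 807 and 833 CPM in the others.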
